A study of Homo sapiens with 6 samples.

Results

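The genes STAT3, STAT5A, STAT5B, STAT6, JAK1, JAK2, SOCS1, SOCS2, SOCS3 and CISH, which carry signals from cytokine receptors to the nucleus and switch them off again, were followed in PQBP1-depleted ovarian cancer cells. They were taken by gene symbol from a table of 32679 genes, with earlier results of these data known, and all 10 had a row. Poly(A) RNA of HEY cells, a human ovarian cancer line, was sequenced in 3 libraries with a negative control hairpin (shNC) and 3 with a hairpin against PQBP1 (shPQBP1), all labelled day 3. The shPQBP1 libraries are labelled with doxycycline at 1 µg/ml and the shNC libraries with no treatment, so the hairpin and the drug cannot be told apart. Hairpins were delivered by lentivirus and stable lines were selected with puromycin. Nothing in the labels says that the 3 libraries of a group came from separate cultures, so the p-values measure the spread between these libraries, which may be technical.

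A cytokine that binds its receptor activates the receptor-bound JAK kinases, which phosphorylate the receptor and then the STAT proteins. Phosphorylated STATs pair, enter the nucleus and bind DNA at a short palindrome, and among the genes that they induce are those of the SOCS proteins and CISH, which block the receptors or the kinases and close a negative feedback loop. STAT3 is best known downstream of IL6-type cytokines, STAT5A and STAT5B downstream of growth hormone, prolactin and interleukins, and STAT6 downstream of IL4 and IL13. Activity in this pathway is set by phosphorylation of the proteins, which RNA levels do not measure.

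PQBP1 RNA was 7.18, 6.67 and 6.93 FPKM (fragments scaled to transcript length and sequencing depth) in shNC and 1.68, 1.72 and 1.44 FPKM in shPQBP1, a log2 fold change of -2.04 ± 0.10 (SE, adjusted p = 0.00154). All p-values across genes are from limma on log2(FPKM + 0.1), two-sided, adjusted by Benjamini-Hochberg over the 11413 genes with a mean of at least 1 FPKM. The epithelial and mesenchymal markers KRT7, KRT8, KRT18 and VIM were expressed in all 6 libraries, the Müllerian marker PAX8 ranged from 12.33 to 15.7 FPKM in shNC and from 18.41 to 24.08 FPKM in shPQBP1 (log2 fold change 0.53, adjusted p = 0.102), WT1 from 0.63 to 0.71 and from 0.31 to 0.45 FPKM, and MUC16 and CDH1 reached no more than 0.06 FPKM. Of the lineage list, MSLN, a surface protein of mesothelium and ovarian carcinoma, was higher by 0.82 ± 0.10 (SE, adjusted p = 0.0187). The 12 genes of that list, 8 of them tested, summed to 1356 to 1509 FPKM in shNC and 1539 to 1638 FPKM in shPQBP1, and their part in the fold changes was not tested. Of 10 leukocyte and blood markers 4 had a row. PTPRC, the pan-leukocyte marker, was listed at 0 in every library and CD14 reached no more than 0.15 FPKM, while ITGAM ranged from 0.24 to 0.73 FPKM and the lysosomal gene CD68 from 9.12 to 21.16 FPKM. These 4 genes summed to 9.85 to 16.15 FPKM in shNC and 12.53 to 21.51 FPKM in shPQBP1. The library shNC 1 correlated least with the others (r of 0.926 to 0.955 across genes, against 0.956 to 0.969 among the remaining pairs), and for some results the value without it is given.

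STAT5A and STAT5B are neighbouring, near-duplicate genes, and the sequence that they share bears on how their RNA can be measured. Their coding sequences were identical at 89% of 2345 aligned bases, and the longest identical run of their canonical transcripts (GENCODE release 44) was 429 bases, in coding sequence, spread over 4 of the 19 exons of each and equal to 11.4% of the STAT5A and 8.45% of the STAT5B transcript. A stretch of 100 bases placed at random would not separate the pair at 10.1% of positions in STAT5A and at 7.45% in STAT5B, and none of the 100-base stretches of either transcript occurred in STAT3. How the authors' pipeline divided such reads is not given in the sources used here, so the separate levels of STAT5A and STAT5B are less certain than those of STAT3. The following 120 bases from each coding sequence (hg38) show the end of that run. The first 60 bases belong to it, and the only capital in each marks the base at which the 2 sequences differ. They lie in 2 exons within chr17:42300814-42301337 on the plus strand for STAT5A and within chr17:42218268-42218779 on the minus strand for STAT5B.
STAT5A: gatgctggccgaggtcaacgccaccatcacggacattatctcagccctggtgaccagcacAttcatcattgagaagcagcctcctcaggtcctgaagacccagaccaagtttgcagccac
STAT5B: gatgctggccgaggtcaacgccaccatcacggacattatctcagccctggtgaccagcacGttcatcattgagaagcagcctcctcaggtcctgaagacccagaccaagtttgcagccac

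STATs bind the palindrome TTCNNNGAA, which reads the same on both strands, and the RefSeq promoters (GRCh38.p14, 250 bases before to 50 after a start) of the genes were searched for it. Promoters were found for 9 of the 10 genes, and SOCS2 had none in the table. CISH, the classic STAT5 target, held 4 matches, at 241, 230, 129 and 112 bases before its start, and the promoters of the other 8 genes held none. Of all 35116 promoters, 7.66% held at least 1 match. The 167 bases of the CISH promoter with these matches in capitals (chr3:50611858-50612024, minus strand) are printed because they are the only matches in the promoters searched.
CISH: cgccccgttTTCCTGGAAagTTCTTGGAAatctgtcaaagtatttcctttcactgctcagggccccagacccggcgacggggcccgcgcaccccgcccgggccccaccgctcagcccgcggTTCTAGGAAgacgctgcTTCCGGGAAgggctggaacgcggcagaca
With the spacer shortened to TTCNNGAA, 1 match each was found for STAT3, SOCS3 and JAK1 (7.74% of all promoters), and with TTCNNNNGAA 1 match was found for STAT5A (6.44% of all promoters). A match is a description of the sequence and not evidence of binding.

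Per length, JAK1 was the most abundant of the 10 genes, with a mean of 38.8 FPKM in shNC, followed by STAT6 (19.6), STAT3 (14.5), STAT5B (8.21) and SOCS3 (6.44). The ranges of these 5 genes did not overlap with those of their neighbours in the order. JAK2 (2.64), STAT5A (2.60) and SOCS2 (2.28) overlapped in shNC and were not separated, and SOCS1 (0.43) and CISH (0.03) were lowest. In shPQBP1 the first 3 places were the same, whereas STAT5B (4.91) lay just below SOCS3 (5.08) with overlapping ranges, the same held for JAK2 below STAT5B and SOCS2 below JAK2, and STAT5A (1.23) had moved to the 8th place, apart from SOCS2 above and SOCS1 below. SOCS1 and CISH had a mean under 1 FPKM and were not tested, which leaves 8 of the 10 genes in the fit.

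**Figure D1:**
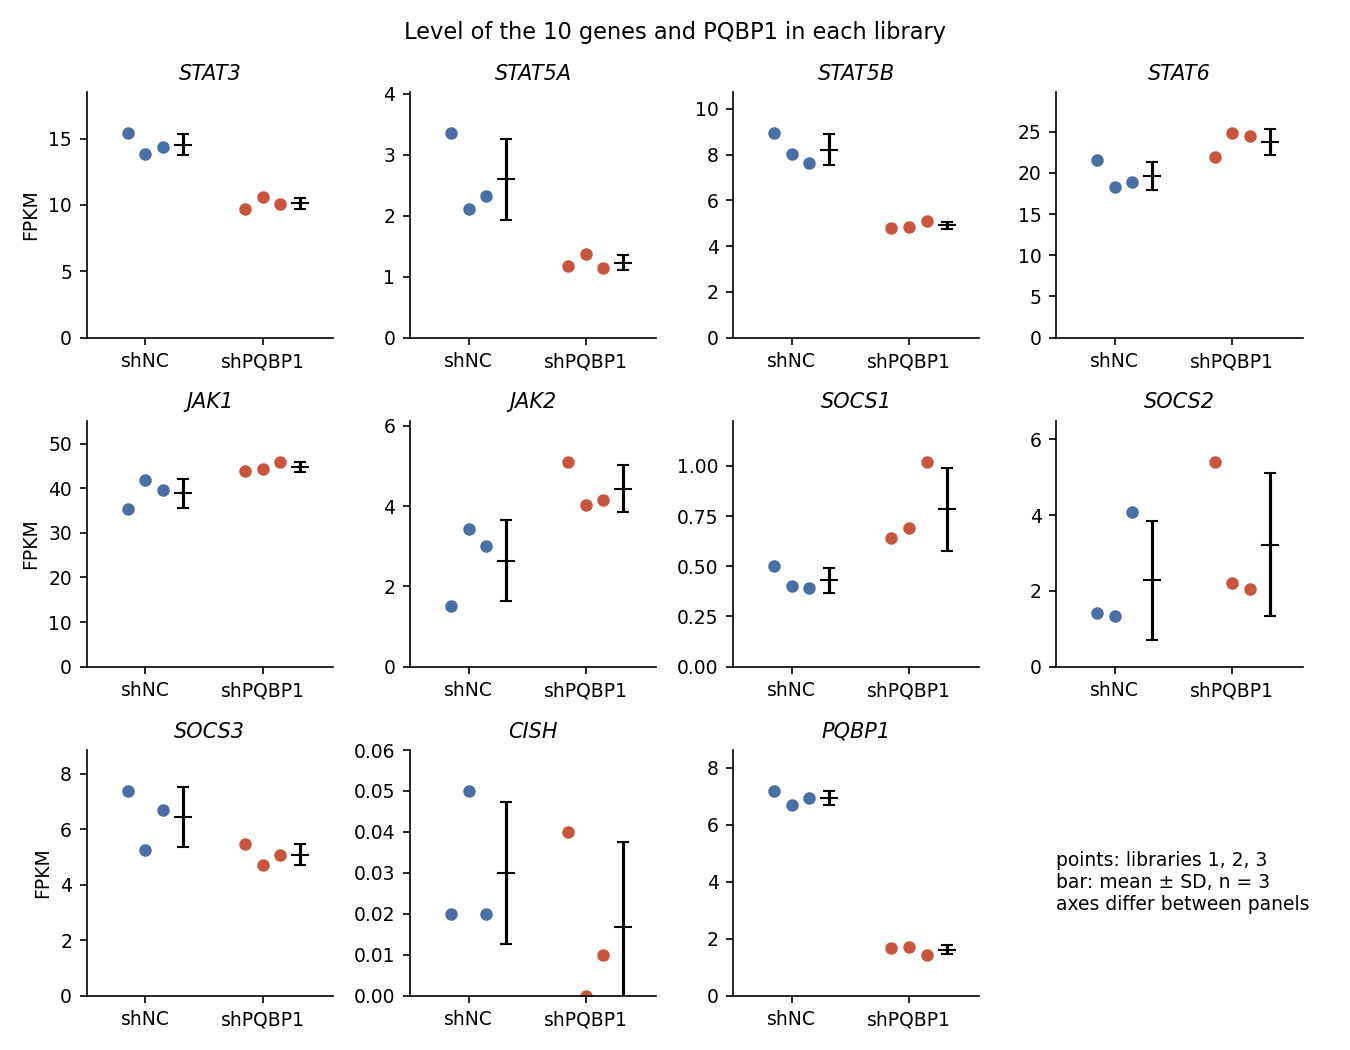
FPKM of the 10 genes and of PQBP1 in each library, shNC in blue and shPQBP1 in red (vertical axes start at 0 and differ between panels), with the mean ± SD (n = 3) as a bar beside each group. The groups are apart for STAT3, STAT5A, STAT5B, STAT6, JAK1, JAK2, SOCS1 and PQBP1, and overlap for SOCS2, SOCS3 and CISH.

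Of the 8 genes tested, STAT3 and STAT5B fell at an adjusted p under 0.05 and none rose, where 1.18% of all genes tested fell and 1.73% rose (2.91% in either direction). At an unadjusted p under 0.05, 3 were lower (STAT3, STAT5A and STAT5B, against 11.7% of all genes) and 3 higher (STAT6, JAK1 and JAK2, against 11.9%). The same 6 genes had groups that did not overlap, 3 lower (17.1% of all genes) and 3 higher (17.3%). None passed the threshold of the study, an unadjusted p under 0.05 together with more than 2-fold change, which 1.52% of all genes passed. STAT5A lay at its edge, since its group means differed by more than 2-fold (ratio 0.474) and its log2 fold change of -0.99 with 0.1 FPKM added became -1.04 with 0.01 FPKM added and -1.06 under quantile normalization. The median log2 fold change of the 8 genes was -0.06, beside 0.02 over all genes tested.

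STAT3, the effector of IL6-type cytokines, measured 15.43, 13.82 and 14.39 FPKM in shNC and 9.73, 10.59 and 10.04 FPKM in shPQBP1. Every shPQBP1 library lay below every shNC library, and the means were 14.5 ± 0.816 and 10.1 ± 0.436 FPKM (SD, n = 3). STAT3 fell by 0.519 on the log2 scale (SE 0.0806, 95% interval -0.714 to -0.323, adjusted p = 0.0315). In such bulk RNA, fewer cells that express a gene and less of its RNA per cell cannot be told apart. The call was kept without shNC 1 (adjusted p = 0.0333) and lost without any other single library. The adjusted p was 0.0759 without shNC 2, 0.111 without shNC 3, 0.143 without shPQBP1 1, 0.107 without shPQBP1 2 and 0.147 without shPQBP1 3. The log2 fold change stayed between -0.555 and -0.476. With the replicate number as a block the adjusted p of STAT3 was 0.227. Of 16 alternative fits, 8 gave STAT3 an adjusted p under 0.05.

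STAT5B, the more abundant of the 2 STAT5 genes in HEY cells, measured 8.95, 8.05 and 7.62 FPKM in shNC and 4.80, 4.84 and 5.09 FPKM in shPQBP1. The groups were far apart beside their spread, with means of 8.21 ± 0.679 and 4.91 ± 0.157 FPKM (SD, n = 3). STAT5B fell by 0.727 on the log2 scale (SE 0.0906, 95% interval -0.946 to -0.507, adjusted p = 0.0189). Its call was kept without shNC 1 (adjusted p = 0.0184). The adjusted p was 0.0644 without shNC 2, 0.0607 without shNC 3, 0.0933 without shPQBP1 1, 0.0923 without shPQBP1 2 and 0.102 without shPQBP1 3. These fits gave log2 fold changes between -0.778 and -0.663. With the replicate number as a block the adjusted p of STAT5B was 0.188. Of 15 alternative fits, 9 gave STAT5B an adjusted p under 0.05.

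STAT5A, the paralog best known from prolactin signalling in the breast, measured 3.36, 2.11 and 2.33 FPKM in shNC and 1.18, 1.37 and 1.15 FPKM in shPQBP1. The highest value was that of shNC 1, and all 3 shPQBP1 libraries lay below all 3 shNC libraries. Its log2 fold change of -0.99 ± 0.195 (SE, 95% interval -1.47 to -0.52) was the largest of the 8 genes in size, but the adjusted p was 0.0552. The adjusted p was 0.0461 without shNC 1, with a log2 fold change of -0.80. It was 0.0812 without shNC 2, 0.134 without shNC 3, 0.189 without shPQBP1 1, 0.14 without shPQBP1 2 and 0.19 without shPQBP1 3. With the replicate number as a block it was 0.227. It was 0.0202 once each library's trend on the GC content and length of the transcripts had been taken out (the GC and length correction). Of 15 alternative fits, 2 gave STAT5A an adjusted p under 0.05.

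The ratio of STAT5A to STAT5B in a library was 0.375, 0.262 and 0.306 in shNC and 0.246, 0.283 and 0.226 in shPQBP1. These ratios overlapped between the groups, and their difference of -0.31 on the log2 scale did not pass an exact permutation test (p = 0.2, two-sided, 3 against 3 libraries, smallest possible p = 0.1). The difference in the ratio was -0.18 without shNC 1 (exact permutation p = 0.4).

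STAT6, which carries IL4 and IL13 signals, went the other way with 21.52, 18.34 and 18.88 FPKM in shNC and 21.89, 24.86 and 24.53 FPKM in shPQBP1. The gap between the groups was small, since shNC 1 lay just below shPQBP1 1. The log2 fold change was 0.28 ± 0.0964 (SE, adjusted p = 0.159). With the GC and length correction it was 0.40 with an adjusted p of 0.0124, where 8.24% of all genes passed 0.05. Of 16 alternative fits this was the only 1 with an adjusted p of STAT6 under 0.05, and the highest was 0.371.

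Of the kinases, JAK1, the partner of most interleukin and interferon receptors, measured 35.25, 41.76 and 39.51 FPKM in shNC and 43.77, 44.43 and 45.90 FPKM in shPQBP1. All shPQBP1 values were above all shNC values by a narrow margin, with a log2 fold change of 0.21 ± 0.0843 (SE, adjusted p = 0.211). The unadjusted p of JAK1 was 0.049, and 0.0529 without shNC 1, with a log2 fold change of 0.14. JAK2, the kinase of the growth hormone, prolactin and erythropoietin receptors, measured 1.5, 3.42 and 3.01 FPKM in shNC and 5.10, 4.03 and 4.15 FPKM in shPQBP1. Its groups did not overlap, but the value of shNC 1 was far below those of the other shNC libraries. The log2 fold change was 0.79 ± 0.305 (SE, adjusted p = 0.19), and 0.44 ± 0.134 without shNC 1 (adjusted p = 0.135).

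The ratio of JAK1 to JAK2 was 23.5, 12.2 and 13.1 in shNC and 8.58, 11 and 11.1 in shPQBP1. It was lower in all shPQBP1 libraries, by -0.62 on the log2 scale (exact permutation p = 0.1, the smallest that 3 against 3 allow), and by -0.32 without shNC 1.

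Of the feedback inhibitors, SOCS2 and SOCS3 were tested and neither passed. SOCS3, which blocks JAKs at receptors of the IL6 type, measured 7.38, 5.25 and 6.70 FPKM in shNC and 5.45, 4.71 and 5.08 FPKM in shPQBP1. shNC 2 fell inside the shPQBP1 range, and the log2 fold change of -0.33 ± 0.143 did not pass the test (SE, 95% interval -0.673 to 0.0219, adjusted p = 0.23). Without shNC 1 it was -0.22 (adjusted p = 0.352). The ratio of SOCS3 to STAT3 was 0.478, 0.380 and 0.466 in shNC and 0.560, 0.445 and 0.506 in shPQBP1, an overlapping difference of 0.19 on the log2 scale (exact permutation p = 0.3).

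SOCS1, which binds and inhibits JAKs directly, measured 0.50, 0.40 and 0.39 FPKM in shNC and 0.64, 0.69 and 1.02 FPKM in shPQBP1. It was low in all libraries, and its groups did not overlap. In a fit on every gene above 0 in at least 1 library its log2 fold change was 0.72 ± 0.238 (SE, adjusted p = 0.27). The size depended on the FPKM added, since the log2 difference of SOCS1 was 0.313 with 1 added and 0.829 with 0.01 added. SOCS2, the regulator of growth hormone signalling, measured 1.41, 1.34 and 4.09 FPKM in shNC and 5.40, 2.21 and 2.04 FPKM in shPQBP1. One library of each group stood far above the others of its group, and the log2 fold change was 0.53 with an interval from -0.784 to 1.84 (adjusted p = 0.561) and left the direction open. Without shPQBP1 1 its log2 fold change was 0.09, and without shNC 3 it was 1.03 (adjusted p of 0.934 and 0.272).

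CISH was listed at 0.02, 0.05 and 0.02 FPKM in shNC and at 0.04, 0 and 0.01 FPKM in shPQBP1. Its row names 1 transcript, ENST00000491847, which GENCODE release 44 classes as a retained intron, and not the canonical coding transcript, whereas the rows of the other 9 genes name theirs. Among 16950 protein-coding genes of the table, 3.65% have a row that names no coding transcript. The listed values can therefore not be read as the level of the CISH mRNA, and no fold change is given.

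**Figure D2:**
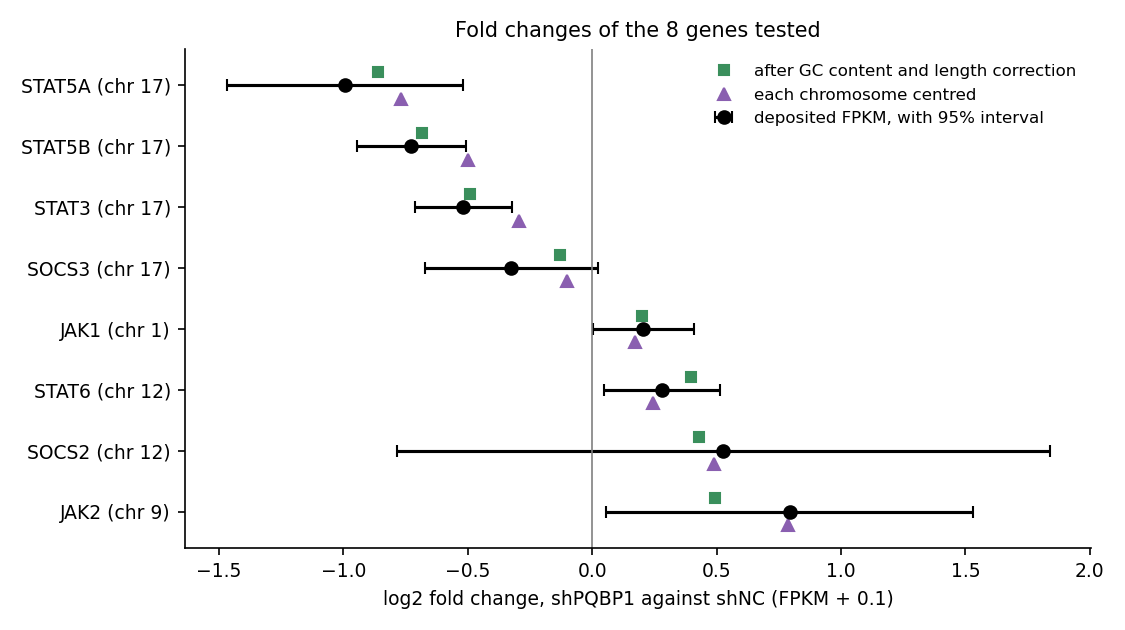
Log2 fold change (shPQBP1 against shNC, on FPKM + 0.1) of the 8 genes tested, with the chromosome of each, as fitted on the deposited FPKM (black, with its 95% interval), after the GC and length correction (green squares) and with each chromosome centred (purple triangles). The 4 genes below 0, STAT5A, STAT5B, STAT3 and SOCS3, are those on chromosome 17, and the genes on chromosomes 1, 9 and 12 are above 0.

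STAT5B, STAT5A and STAT3 lie side by side on chromosome 17 (hg38, chr17:42199176-42288633 minus, chr17:42287547-42311943 plus and chr17:42313324-42388540 minus). The annotated spans of STAT5B and STAT5A overlap by 1087 bases at their starts, on opposite strands, and 1380 bases separate STAT5A from STAT3. Whether reads were counted by strand is not given in the sources used here. SOCS3 lies on the same chromosome, at chr17:78356778-78360077.

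The 16 other tested genes within 250 kb of the 3 STAT genes all had a log2 fold change below 0, from -0.78 to -0.01, with a median of -0.41. In 10 of the 16 the groups did not overlap (17.1% of all genes were lower in this way), and 1, RETREG3, a receptor of endoplasmic reticulum turnover, fell (log2 fold change -0.78 ± 0.123, SE, adjusted p = 0.0328), where 1.18% of all genes fell at an adjusted p under 0.05. STAT5A was lower than each of the 16 neighbours by log2 fold change, STAT5B than all but RETREG3, and STAT3 than all but RETREG3, RAB5C and AC067852. With the GC and length correction the median of the neighbours was -0.28, and CNP (0.01), KAT2A (0.06) and NAGLU (0.22) came above 0. Around SOCS3, all 5 tested neighbours were also lower, with a median of -0.37, or -0.17 after the correction. Around STAT6, JAK1 and JAK2 the medians were -0.004, 0.009 and -0.050 over 7, 4 and 3 genes, and 0.142, -0.040 and -0.241 with the correction. Around SOCS2, on chromosome 12, the median over 6 genes was 0.593, or 0.433 with the correction. Of the 6, 3 passed an adjusted p under 0.05 (2.91% of all genes), in both directions. NUDT4 fell (log2 fold change -2.25, adjusted p = 0.00507), and SOCS2-AS1 (0.89, adjusted p = 0.0384) and CRADD (0.80, adjusted p = 0.0234) rose. The window of 250 kb was chosen after values of the region had been seen.

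The shift was not limited to this region. Of the 686 tested genes on chromosome 17, 79.4% had a log2 fold change below 0, and their median of -0.22 was the lowest of the 23 chromosomes, against 0.02 over all genes. At an adjusted p under 0.05, 29 of the 686 were lower and 3 higher. The medians of all 9 windows of 10 megabases along the chromosome were below 0, from -0.32 to -0.10. By library, the median deviation of chromosome 17 genes from their mean was 0.197, 0.087 and 0.090 in shNC and -0.128, -0.075 and -0.101 in shPQBP1, so the groups did not overlap. That was not particular to chromosome 17. The groups were also apart on several other chromosomes, such as 2 (higher in shPQBP1) and 22 (lower), and overlapped on others, such as 3. Without shNC 1 the median fold change of chromosome 17 was -0.20. With the GC and length correction it was -0.15, still the lowest of all. With the median of each chromosome removed in every library, a step chosen after these values had been seen, STAT5B still fell (log2 fold change -0.50 ± 0.0754, SE, adjusted p = 0.0345), STAT3 came to -0.29 ± 0.0654 (adjusted p = 0.0765), STAT5A to -0.77 ± 0.169 (adjusted p = 0.0748) and SOCS3 to -0.10 ± 0.132 (adjusted p = 0.66), where 2.56% of all genes were called. What sets the chromosome-wide shift was not tested.

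**Figure D3:**
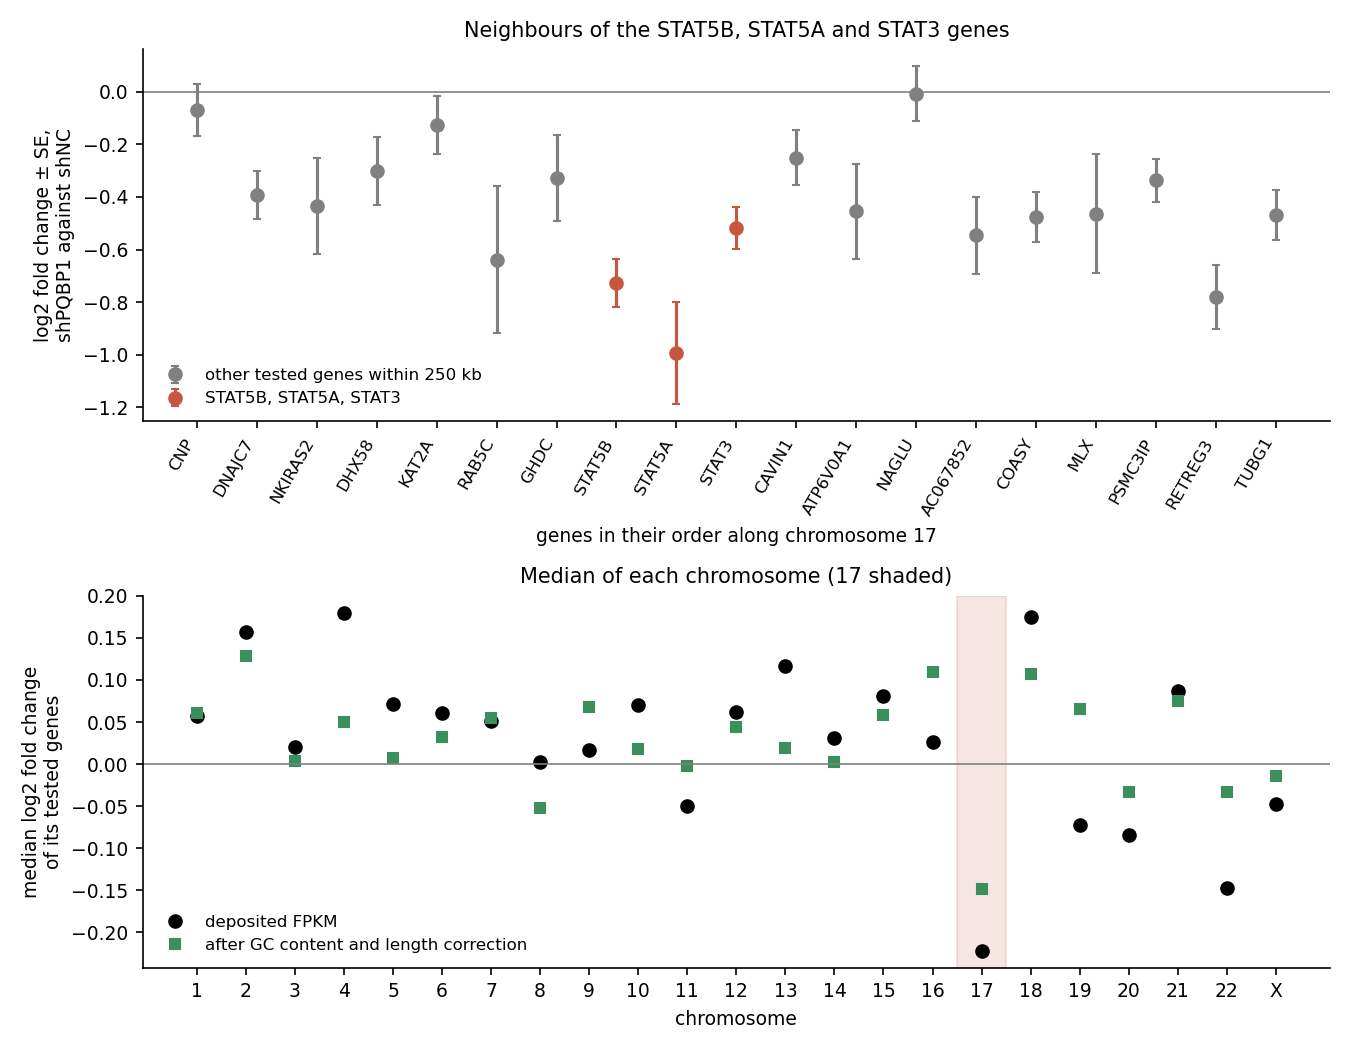
Upper panel, log2 fold change ± SE (shPQBP1 against shNC) of the tested genes within 250 kb of STAT5B, STAT5A and STAT3, in their order along the chromosome, with the 3 STAT genes in red. Lower panel, the median log2 fold change of the tested genes of each chromosome, as deposited (black) and with the GC and length correction (green), with chromosome 17 lowest in both.

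GC content also moved with the fold changes. Across 11385 tested genes the log2 fold change and the GC content of the transcript had a Spearman correlation of -0.46, a description across genes that share libraries. The canonical transcripts of STAT5A, STAT5B, STAT3 and SOCS3, all below 0, have 56.7%, 51.8%, 50% and 60% GC, beside a median of 47.5%. Of the tested genes above 0, JAK2, SOCS2 and JAK1 have 36.7%, 41.8% and 46.4%, but STAT6 has 56.1%, close to STAT5A. SOCS1, not tested but also higher in shPQBP1, has 66.2%. With the correction 8.24% of all genes passed an adjusted p under 0.05, and STAT3, STAT5A, STAT5B and STAT6 were among them, with log2 fold changes of -0.49, -0.86, -0.68 and 0.40, and JAK2 came to 0.50 (adjusted p = 0.0867).

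The genes whose pattern was most like that of STAT5A over the 6 libraries were RNF19B, a ubiquitin ligase (Pearson r = 0.999 on log2(FPKM + 0.1)), PDRG1 (r = 0.998) and POLR2J4 (r = 0.997), a copy of the POLR2J family whose reads may be shared with its relatives. RNF19B measured 10.11, 8.57 and 8.97 FPKM in shNC and 7.17, 7.45 and 7.18 FPKM in shPQBP1. Like STAT5A, it was highest in shNC 1 and level among the shPQBP1 libraries. With 6 libraries and 11413 genes such values are a description only.

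The rest of the pathway was read from 6 lists of other STATs and JAKs, other inhibitors, receptors, ligands and target genes, with 101 genes in the table and 64 tested. At an adjusted p under 0.05, 4 rose and 2 fell, 9.38% of the 64 beside 2.91% of all genes, and at an unadjusted p under 0.05 the 15 genes called were 23.4% beside 23.6%. The median log2 fold change of the 64 genes was 0.04. All 6 adjusted calls were ligands or receptors, as the plot of the lists shows.

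TYK2, a kinase of the JAK family, measured 6.42, 6.89 and 7.12 FPKM in shNC and 7.84, 7.42 and 7.5 FPKM in shPQBP1, with groups that did not overlap and a log2 fold change of 0.16 ± 0.0796 (SE, adjusted p = 0.283). STAT2 measured 7.85, 6.33 and 6.73 FPKM in shNC and 5.44, 8.1 and 6.41 FPKM in shPQBP1, with overlapping groups and a log2 fold change of -0.08 ± 0.166 (SE, adjusted p = 0.781). Of 11 tested SOCS relatives, PIAS proteins and phosphatases, none passed the adjusted threshold and 3 were lower at an unadjusted p under 0.05 (11.7% of all genes). SOCS7, also encoded on chromosome 17, measured 2.98, 2.87 and 2.91 FPKM in shNC and 1.95, 1.96 and 2.2 FPKM in shPQBP1 (log2 fold change -0.50 ± 0.0981, SE, adjusted p = 0.0549). The other 2 were PTPN1, a phosphatase of JAKs, at -0.21 (adjusted p = 0.162) and PIAS4, at -0.27 (adjusted p = 0.191). SOCS5 stood at 0.47 (adjusted p = 0.218).

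Of 9 tested ligands, 3 rose and 1 fell. IL6, the main activator of STAT3, measured 6.18, 5.71 and 6.41 FPKM in shNC and 9.69, 10.31 and 9.77 FPKM in shPQBP1, a log2 fold change of 0.69 ± 0.0817 (SE, adjusted p = 0.0181). IL24, an IL10-family cytokine that signals through STAT3, measured 1.46, 1.49 and 1.49 FPKM in shNC and 6.37, 3.64 and 5.06 FPKM in shPQBP1 (1.66 ± 0.202, adjusted p = 0.0186). CSF3, the granulocyte growth factor, rose from 0.83, 1.47 and 1.28 FPKM to 4.64, 5.19 and 2.98 FPKM (1.75 ± 0.279, adjusted p = 0.0334) although its gene is on chromosome 17. IL11, which shares the receptor subunit IL6ST with IL6, fell from 2.58, 1.78 and 2.43 FPKM to 0.77, 1.08 and 0.77 FPKM (-1.28 ± 0.206, adjusted p = 0.0343).

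Of 16 tested receptors, 1 rose and 1 fell. IL13RA2, the receptor of IL13 with a short tail that does not engage STAT6, rose from 60.77, 104.55 and 99.12 FPKM to 213.9, 198.02 and 211.5 FPKM (log2 fold change 1.28 ± 0.208, SE, adjusted p = 0.0345), or by 1.03 without shNC 1. IL20RB, a subunit of receptors for IL24, fell from 3.93, 3.26 and 3.39 FPKM to 1.59, 2.03 and 1.54 FPKM (-1 ± 0.144, adjusted p = 0.0261). The adjusted calls of these 6 genes rested on the full set of libraries, since none was called without shNC 2, shNC 3, shPQBP1 1 or shPQBP1 3, only IL24 without shPQBP1 2, and all but IL11 without shNC 1. Their log2 fold changes kept their direction with any library left out, and their adjusted p did not exceed 0.147.

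**Figure D4:**
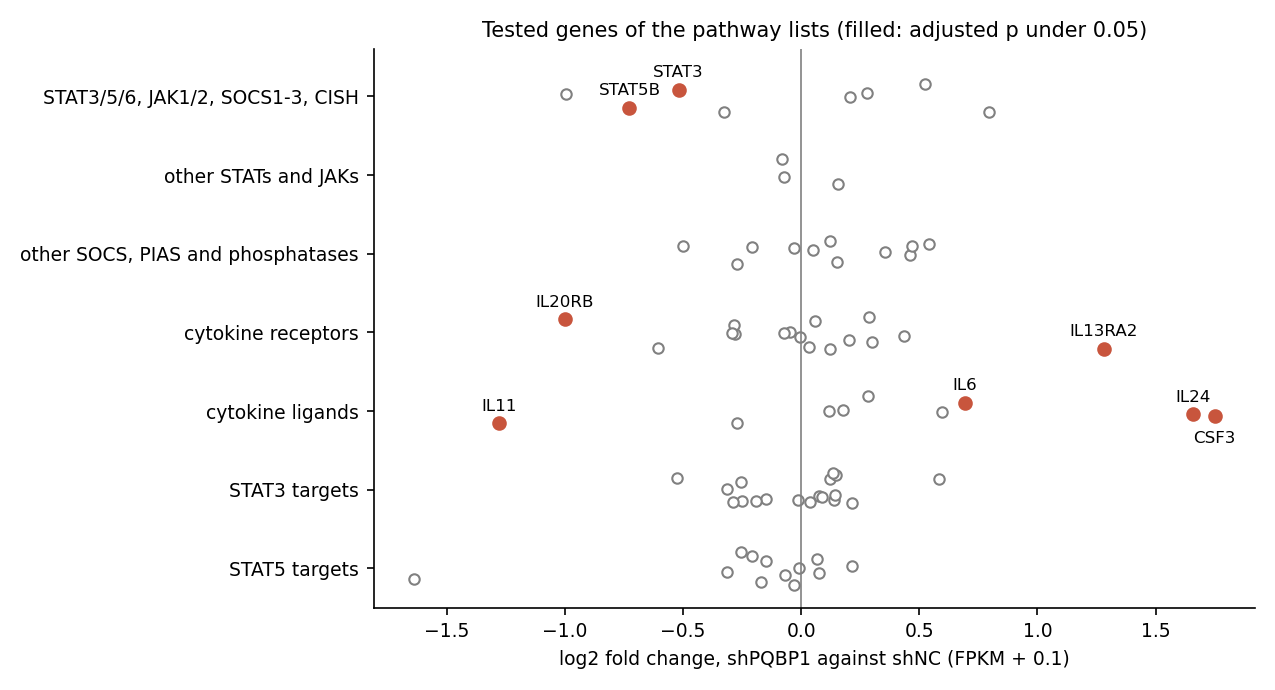
Log2 fold change (shPQBP1 against shNC, on FPKM + 0.1) of the tested genes of each list, spread vertically for legibility, with filled points at an adjusted p under 0.05. The filled points are STAT3 and STAT5B in the top row, and the receptors IL20RB and IL13RA2 and the ligands IL11, IL6, IL24 and CSF3 below, while no tested gene of the target lists is filled.

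Of 18 tested STAT3 targets and 12 tested STAT5 targets, none passed the adjusted threshold, and 3 and 2 passed an unadjusted p under 0.05, no larger a share than the 23.6% of all genes. MCL1, an anti-apoptotic target of both, had a log2 fold change of 0.22 ± 0.0632 (SE, adjusted p = 0.123), with 116.21 to 127.04 FPKM in shNC and 139.22 to 143.66 FPKM in shPQBP1. IRF1, BIRC5 and the kinase gene PIM1 stood at -0.29, -0.25 and -0.26 (adjusted p of 0.187, 0.209 and 0.229), and ID1 at -0.17 (adjusted p = 0.287), or at 0.003 with the GC and length correction. BIRC5 lies on chromosome 17, among the neighbours of SOCS3, and came to -0.03 with each chromosome centred (adjusted p = 0.857). CDKN1A, the cell cycle inhibitor p21, measured 101.15, 87.08 and 87.01 FPKM in shNC and 18.76, 79.36 and 16.95 FPKM in shPQBP1. The value of shPQBP1 2 lay near the controls, and the log2 fold change was -1.64 ± 0.58 (SE, adjusted p = 0.166) with this library and -2.35 ± 0.112 (adjusted p = 0.00928) without it. Without any other single library the adjusted p of CDKN1A lay between 0.206 and 0.383, so the call rests on leaving out shPQBP1 2.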

How the data were processed

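The authors' processing notes and methods name HISAT2 2.2.0 for mapping paired reads of poly(A) libraries to hg38, SAMtools 1.9 for sorting, StringTie 1.3.0 for transcripts and edgeR for their comparison. FPKM per gene and library, rounded to 2 decimals, were deposited by the authors. The annotation release and FPKM settings are not given in the sources used here. The columns of their own comparison (fold change, log2 fold change, p-value, q-value and calls) were not used. A search for steps of whole reads in the low FPKM values had no set threshold and could not decide whether such steps are present. Depth is therefore unknown and a count test was not run.

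Genes with a mean of at least 1 FPKM (11413 of 32679) were tested on log2(FPKM + 0.1) with limma 3.58.1 in R 4.3.3 (linear models, moderated with a mean-variance trend, group as the only term). Fold changes on this scale understate those of low genes. The GC and length correction removed a spline of GC content and one of log length, each with 5 degrees of freedom, in every library, using GENCODE release 44 transcripts, for 99.8% of the genes tested. Ratios were compared by exact permutation in Python 3.11.15. The fit was tested on simulated data. The genes and lists were chosen with earlier results of these data known. Beside the 10 genes and PQBP1, the genes named are those of each list at an adjusted p under 0.05, or, with more than 4 or none, the 4 with the smallest p, and the 3 most like STAT5A. A gene that this rule names is not reported here. Genes near the STATs and SOCS2 and the lineage and leukocyte markers given were chosen after their values were seen. Alternatives were other scalings, filters and pseudocounts, no trend, a replicate block, each library left out, and the 2 corrections above.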

Additional observations from a re-analysis of the deposited data

How the results depend on the processing

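The log2 fold changes of PQBP1 and of the 8 genes tested, and the differences in the 3 ratios, kept their direction under every alternative run for them. With the GC content and length correction, ID1, the medians around STAT6 and JAK1, and the STAT neighbours CNP, KAT2A and NAGLU changed sign. The median over all genes went from 0.0208 to -0.022 under quantile normalization. PQBP1 kept its call except with a replicate block (log2 fold change -2.04, adjusted p = 0.0686), and ranged from -2.08 to -1.96 with 1 library left out. The 2 calls among the 10 genes became 1 on all genes above 0 in at least 1 sample, 1 at a mean FPKM of at least 10, 0 with the replicate block, 4 after the GC content and length correction and 1 with each chromosome centred, with 0 to 3 when 1 library was left out. At an unadjusted p under 0.05 the 6 became 3 at a mean FPKM of at least 10, where only 3 of them were tested, and 3 to 6 with a library left out. At a fold change over 2 the 0 became 1 under quantile normalization and 1 with a pseudocount of 0.01, and 0 to 2 with a library left out. Over all genes, the 332 adjusted calls became 190 on all genes above 0, 211 at 10 FPKM, 0 with the block (2689 genes had an unadjusted p under 0.05 without it), 938 after the GC correction and 30 to 464 with a library left out. The unadjusted calls became 4156 on all genes above 0, 956 at 10 FPKM and 1780 to 2940 with a library left out, and the calls at a fold change over 2 became 662, 40, 83 with a pseudocount of 1, and 144 to 312. The 6 adjusted calls of the pathway lists became 2 on all genes above 0, 1 at 10 FPKM, 0 with the block and 0 to 5 with a library left out, and the 15 unadjusted calls became 4 at 10 FPKM, 9 with the block, 28 after the GC correction and 10 to 15. The differences in the ratios ranged from -0.436 to -0.176 (STAT5A to STAT5B), 0.0875 to 0.278 (SOCS3 to STAT3) and -0.791 to -0.318 (JAK1 to JAK2) with a library left out, and the replicate block gave sign-flip p-values of 0.5, 0.25 and 0.25, the smallest possible being 0.25. Libraries with the same number did not deviate together (r of -0.186, -0.138 and -0.0114 across genes) and no library correlated best with its own number, so the numbers were not taken as pairs. The causes of these changes were not tested, beyond the fewer libraries or genes that an alternative leaves. With 3 libraries a group and unknown depth, differences below the spread between libraries could not be resolved.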
